A study of Oryza sativa with 4 samples.

Results

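The phytochromes and cryptochromes are the photoreceptors with which a rice leaf reads red, far-red and blue light. The 6 genes described here were chosen by locus ID, as PHYA, PHYB and PHYC (the 3 phytochromes) and CRY1a, CRY1b and CRY2 (the 3 cryptochromes), out of 37858 IDs in the deposited count table. All 6 passed the filter on low counts, which left 22184 IDs to be tested. By the digits of their IDs, the 3 phytochrome genes lie on chromosome 3, CRY1a and CRY2 on chromosome 2 and CRY1b on chromosome 4.

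Leaf RNA of Nipponbare, the japonica cultivar behind the rice reference genome, was sequenced from progeny of seeds in 2 groups, control and heated, with 2 libraries each. The treatment label is 25 °C for control 1 but 30 °C for control 2, heated 1 and heated 2, so it contradicts the title of control 2, and whether this is an entry error is not given. No mutant or transgene is named. Neither the age of the plants, the hour and light at harvest, nor the number of plants in a library is given. The p-values therefore refer to variation among these 4 libraries, which may be technical. The edgeR test used here also moderates each gene's spread towards that of other tested genes. Total expected counts ran from 15444235 to 17298384 per library. Leaf markers were not checked, because the IDs carry no gene names here.

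Phytochromes carry a bilin chromophore and switch between a red-absorbing form and an active far-red-absorbing form that enters the nucleus and leads to the breakdown of PIF transcription factors. PHYA is known as the light-labile member that senses far-red and very weak light, PHYB as the main light-stable red receptor, and PHYC in rice as a partner that is stabilised by PHYB. In Arabidopsis, PHYB also responds to temperature, since its active form reverts faster in the warm. Cryptochromes bind a flavin and sense blue light. They act on the COP1 ubiquitin ligase, with CRY1 best known for seedling de-etiolation and CRY2 for the promotion of flowering.

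The first question was whether the transcript levels of these receptors differed in leaves of heated progeny. None of the 6 was called, that is, 0 had a Benjamini-Hochberg adjusted p under 0.05 in the edgeR quasi-likelihood test, where 0.699% of all tested genes were called. At an unadjusted p under 0.05 the count was also 0 of 6, against 9.23% of all tested genes, and 0 of 6 were also called by DESeq2's Wald test (2.36% of all genes called), edgeR's exact test (3.26%) and limma-voom (0.591%). The median log2 fold change of the 6 genes was -0.032, beside 0.0061 for all tested genes. Their median absolute log2 fold change was 0.10, beside 0.20 for all tested genes. These 2 medians are not matched for count level. The median SE was 0.14 for the 6 genes and 0.22 for all tested genes. The 95% confidence intervals of the fold changes lay between 0.667-fold and 1.88-fold over the 6 genes in this fit, which leaves out a 2-fold change in either direction. For PHYA this did not hold in every fit: the upper bound on the log2 scale was 1.04 with library totals only, 1.03 without control 2, 1.10 without heated 1 and 1.03 without heated 2. PHYA was the member with the widest spread, and that spread came from a low value in control 1.

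PHYA (Os03g0719800) was at 46.0 CPM in control 1, 74.2 CPM in control 2, 75.3 CPM in heated 1 and 78.5 CPM in heated 2. CPM here are TMM-scaled CPM, that is, counts relative to a library size corrected by a factor that brings the bulk of genes to the same level in every library. Control 1 was low and the other 3 libraries lay close together, with control 2 next to the heated pair. The exact 95% counting interval of control 1, 42.6 to 49.6 CPM, was apart from those of the other libraries, which overlapped each other within 70.2 to 82.9 CPM and so leave the order of these 3 unsettled. Such intervals cover counting error only. The mean was 60.1 ± 19.9 CPM for the controls and 76.9 ± 2.28 CPM for the heated libraries (SD, n = 2 each). The fold change was 1.28 (95% interval 0.871 to 1.88), a log2 fold change of 0.35 (SE 0.23) with an edgeR adjusted p of 0.715.

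The value of PHYA depended on which control it was set against. Without control 1, the log2 fold change was 0.05 (95% interval -0.25 to 0.34, edgeR adjusted p = 0.964). Without control 2, it was 0.73 (95% interval 0.42 to 1.03) with an edgeR adjusted p of 0.0120, and PHYA was then the 1 member called. In that fit 10.9% of all tested genes were called, and the remaining control was taken to have the spread of the heated pair. Control 1 lay 1.61-fold below the next library for PHYA. Among 12608 tested genes averaging 10 CPM or more, 340 (2.70%) had control 1 as the lowest library by at least this gap. The same gap set control 2 lowest in 43 genes, heated 1 in 3 and heated 2 in 23. In the other direction, it set control 1 highest in 191 genes, control 2 in 17, heated 1 in 79 and heated 2 in 12. PHYA was thus 1 of the 340 genes low in control 1 alone to this extent.

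Some PHYA reads also matched another locus. Its expected counts were fractional in all 4 libraries, at 670.38, 1286.37, 1343.67 and 1323.85 in control 1, control 2, heated 1 and heated 2. The preceding ID in the table, Os03g0719700, had 17.62, 41.63, 26.33 and 26.15 counts in the same order. Only this ID, of all with a fractional count, summed with PHYA to a whole number in every library (within 0.01 counts), at 688, 1328, 1370 and 1350. It held between 1.92% and 3.13% of the sum. With the pair summed, the log2 fold change was 0.34. The other 5 genes had whole counts in every library.

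PHYB (Os03g0309200), the light-stable red receptor, was at 229 CPM in control 1, 209 CPM in control 2, 184 CPM in heated 1 and 185 CPM in heated 2. Both heated libraries were below both controls, and the heated pair lay within its counting error. Control 1 was the highest library, and its counting interval, 221 to 237 CPM, did not meet that of control 2, 202 to 216 CPM. The controls averaged 219 ± 14.2 CPM and the heated libraries 185 ± 0.825 CPM (SD, n = 2 each). The fold change was 0.844 (95% interval 0.671 to 1.06), a log2 fold change of -0.24 (SE 0.14) with an edgeR adjusted p of 0.669. Against control 2 alone the log2 fold change was -0.18, and against control 1 alone it was -0.32 (edgeR adjusted p = 0.771 and 0.155).

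PHYC (Os03g0752100) was at 174 CPM in control 1, 198 CPM in control 2, 176 CPM in heated 1 and 187 CPM in heated 2. The groups overlapped, with the highest and the lowest library both among the controls. The log2 fold change of PHYC was -0.034 (SE 0.14, 95% interval -0.38 to 0.31, edgeR adjusted p = 0.963). Of the 6 genes, PHYA and PHYB had groups that did not overlap, PHYA with heated above control and PHYB with heated below. Among all tested genes 21.0% had both heated libraries above both controls and 19.5% had them below, so 1 of 6 in each direction is near that background.

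**Figure D1:**
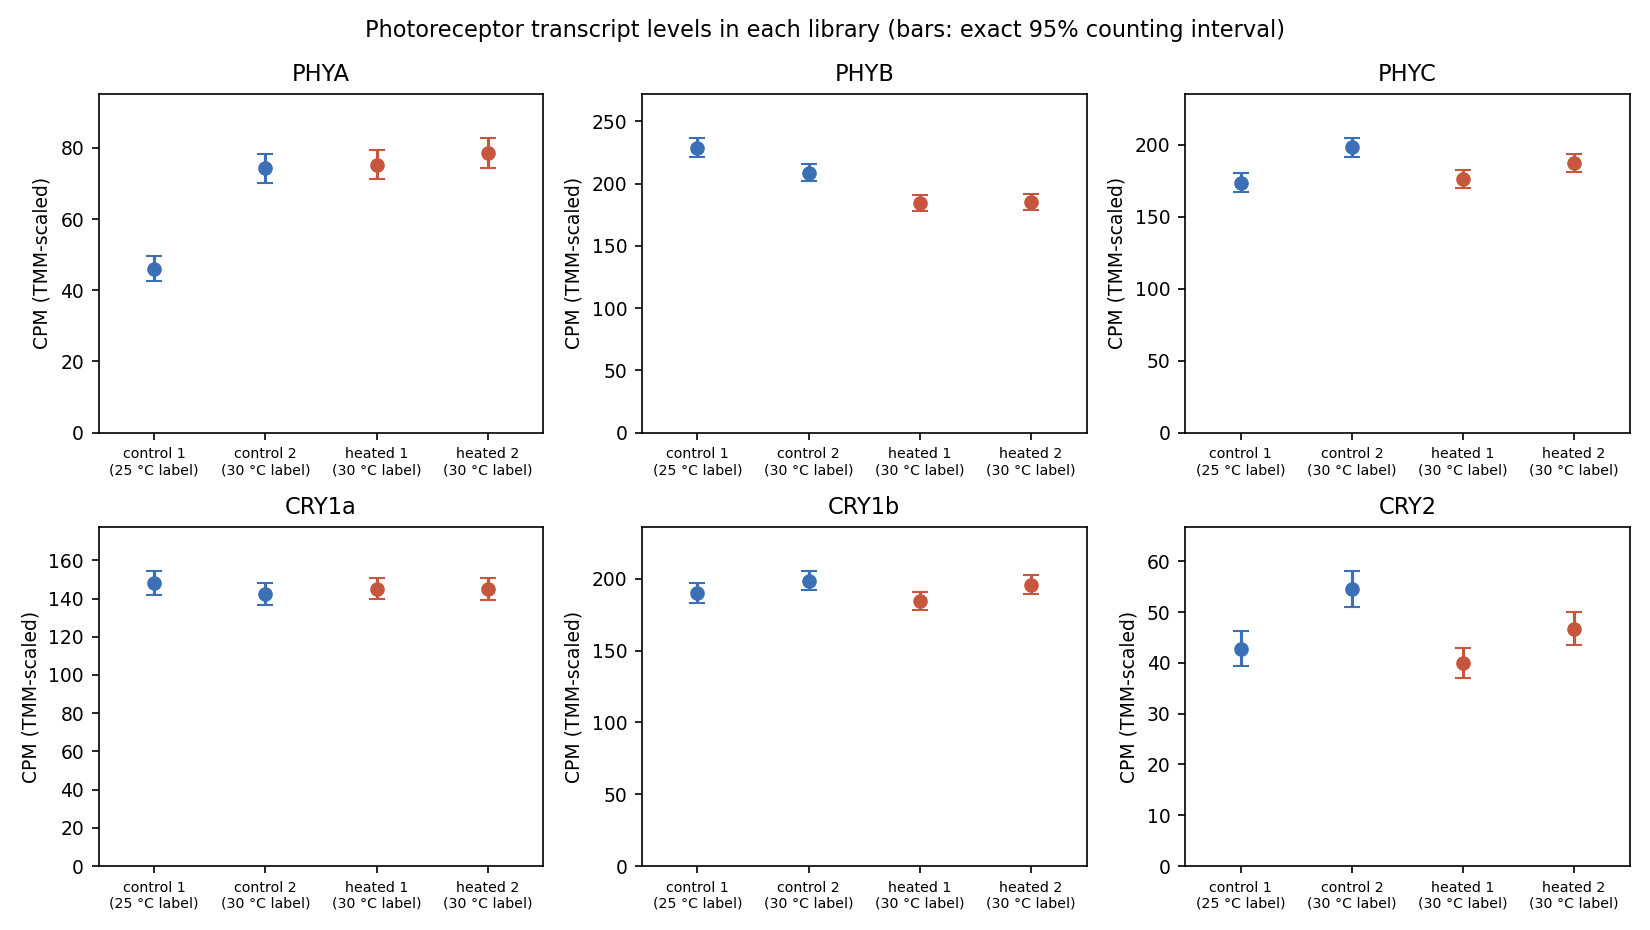
Level of each gene in CPM (TMM-scaled; every axis starts at 0) in the 4 libraries, controls in blue and heated in red, with the exact 95% counting interval as bars. PHYA is low in control 1 alone (46.0 CPM, against 74.2 to 78.5 CPM), PHYB is lower in both heated libraries, CRY2 is highest in control 2, and CRY1a is nearly level.

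Of the 6 genes, CRY1a (Os02g0573200) had the narrowest range. It was at 148 CPM in control 1, 142 CPM in control 2, 145 CPM in heated 1 and 145 CPM in heated 2. Its highest library was 1.04-fold its lowest, and all 4 counting intervals overlapped, so no order of the libraries is given. The log2 fold change was -0.0003 (SE 0.13), and the interval of the fold change was 0.807 to 1.24 (edgeR adjusted p = 1.00). Of the 12608 genes averaging 10 CPM or more, 99.9% had a larger absolute log2 fold change. CRY1b (Os04g0452100), the second CRY1 gene of rice, was at 190, 199, 184 and 196 CPM in control 1, control 2, heated 1 and heated 2. Its groups overlapped, with a log2 fold change of -0.030 (SE 0.13, 95% interval -0.35 to 0.29, edgeR adjusted p = 0.966).

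CRY2 (Os02g0625000) was at 42.8 CPM in control 1, 54.5 CPM in control 2, 39.9 CPM in heated 1 and 46.7 CPM in heated 2. Control 2 was the highest library, and its counting interval, 51.0 to 58.0 CPM, was above those of the others, which reached 50.1 CPM. Control 1 lay between the heated libraries, so the groups overlapped. Average levels were 48.6 ± 8.26 CPM for the controls and 43.3 ± 4.80 CPM for the heated libraries (SD, n = 2 each). The fold change was 0.891 (95% interval 0.667 to 1.19), a log2 fold change of -0.17 (SE 0.17) with an edgeR adjusted p of 0.827. Against control 2 alone the log2 fold change was -0.33, and against control 1 alone it was 0.0041 (edgeR adjusted p = 0.493 and 0.990). The counting intervals of the controls did not meet for PHYA, PHYC and CRY2, with control 1 the lower, nor for PHYB, with control 1 the higher. For PHYA control 2 lay beside the heated libraries, and for CRY2 it lay above them.

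The second question followed from the treatment label, which sets control 1 (25 °C) against the other 3 libraries (30 °C). With the libraries grouped in this way, the count of members called was again 0 of 6, where 0.747% of all tested genes were called. PHYA came nearest to the threshold. It was at 46.0 CPM in the library labelled 25 °C and at 76.0 ± 2.23 CPM in those labelled 30 °C (SD, n = 3), 1.65-fold higher (95% interval 1.37 to 1.99). This is a log2 fold change of 0.72 (SE 0.11), with an unadjusted p of 0.000783 and an edgeR adjusted p of 0.0599. In this grouping 21.3% of all tested genes had an unadjusted p under 0.05. PHYB was at 229 CPM against 193 ± 13.9 CPM (SD, n = 3), a log2 fold change of -0.25 (edgeR adjusted p = 0.309). For PHYC, CRY1a, CRY1b and CRY2 the log2 fold changes were 0.11, -0.036, 0.024 and 0.14, with edgeR adjusted p-values from 0.631 to 0.920. The spread of the single 25 °C library was taken to be that of the rest. Since 1 library carries the 25 °C label, the label and that library cannot be told apart.

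**Figure D2:**
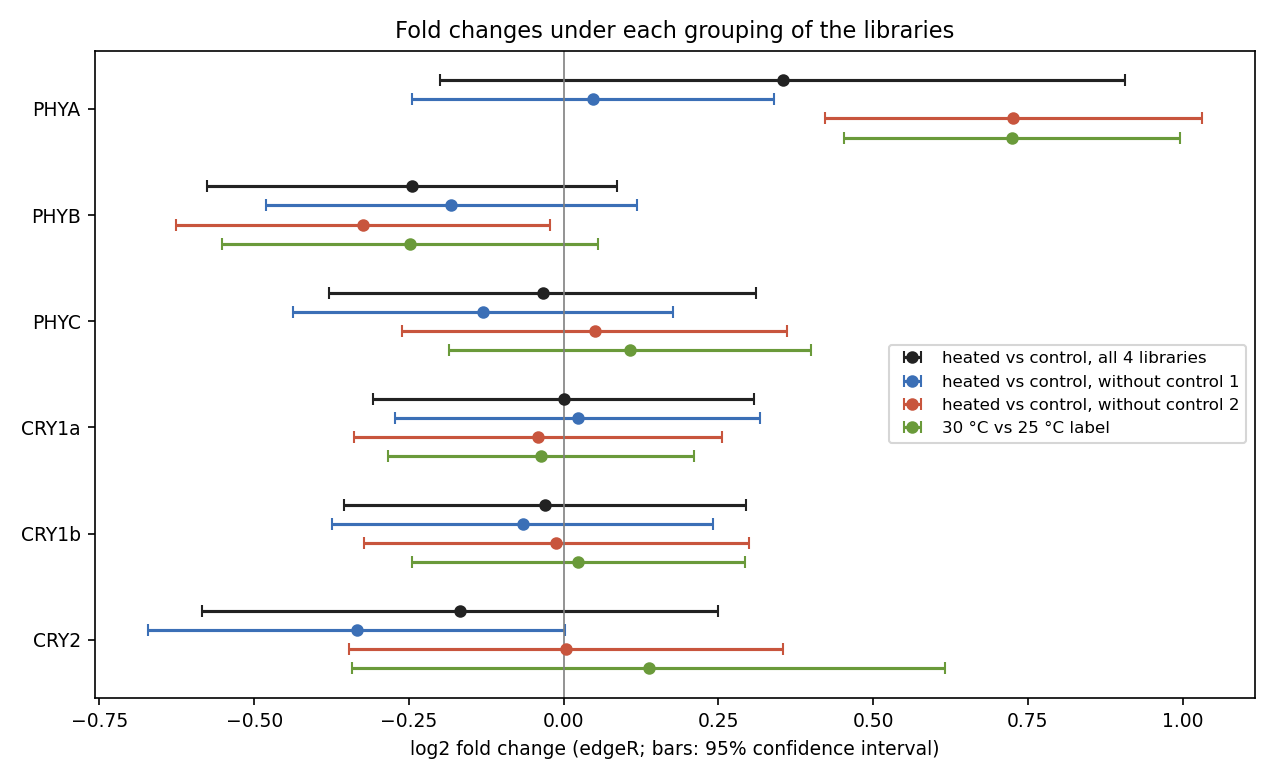
Log2 fold change of each gene (horizontal axis) from edgeR with its 95% confidence interval, for heated against control with all 4 libraries (black), without control 1 (blue) and without control 2 (red), and for the 30 °C against the 25 °C treatment label (green). The PHYA estimate is 0.05 without control 1 and 0.73 without control 2, while the CRY1a and CRY1b estimates stay near 0 in each grouping.

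Shares within a family were then compared, since they need no scaling between libraries. They are shares of reads and not of transcripts, because counts were not divided by transcript length. PHYA took 10.3% of the phytochrome counts in control 1, 15.4% in control 2, 17.3% in heated 1 and 17.4% in heated 2. PHYB took 51.0%, 43.4%, 42.3% and 41.1% in the same order. The order of the libraries by share was thus reversed between these genes, with control 1 at one end and the heated pair at the other. Shares within a family add up to the whole, and the PHYC share varied little. A higher PHYA share therefore goes with a lower PHYB share, and these shares are not independent of each other. PHYB was also highest in control 1 in CPM, which are not bound to a family total. It was at 229 CPM in control 1, 209 CPM in control 2, 184 CPM in heated 1 and 185 CPM in heated 2. In CPM, counting error left the PHYA order of control 2, heated 1 and heated 2 unsettled. The mean PHYA share was 12.8 ± 3.65% in control and 17.3 ± 0.0854% in heated leaves, a difference of 4.50 percentage points (SD, n = 2 each; exact permutation test, two-sided, p = 0.333, the smallest that 2 against 2 libraries allow). The PHYB share differed by -5.53 percentage points with the same exact p of 0.333, and after Benjamini-Hochberg adjustment over the 7 share and ratio comparisons every p was 0.667. PHYC held 38.7% to 41.5% of the phytochrome counts, with overlapping groups.

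Ratios of counts within a library were taken after the values were seen, and restate the low PHYA level of control 1 against genes of narrower range. The ratio of PHYA to PHYB counts was 0.201 in control 1, 0.355 in control 2, 0.409 in heated 1 and 0.423 in heated 2. To CRY1a, the steadiest member, the ratio of PHYA was 0.311 in control 1 and 0.521, 0.519 and 0.541 in the others. Control 1 had the lowest ratio of PHYA to each of the other 5 genes, by 1.27-fold for CRY2 to 1.77-fold for PHYB below the next library.

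Summed over each family, the differences were small. The phytochromes together were at 449, 481, 436 and 451 CPM in control 1, control 2, heated 1 and heated 2, a span of 1.10-fold. The cryptochromes together were at 381, 395, 370 and 388 CPM, a span of 1.07-fold. The log2 ratio of phytochrome to cryptochrome counts was 0.238, 0.284, 0.237 and 0.218 in the same order. It differed between the groups by -0.033 (exact permutation test, two-sided, p = 0.333, the smallest possible). Control 1 and heated 1 were nearly equal in this ratio, so the groups were barely apart. With PHYA summed with Os03g0719700, the p of the same test was 0.667. The cryptochrome shares had overlapping groups for all 3 genes. CRY1b held 49.9% to 50.5% of the cryptochrome counts, CRY1a 36.0% to 39.3% and CRY2 10.8% to 13.8%.

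**Figure D3:**
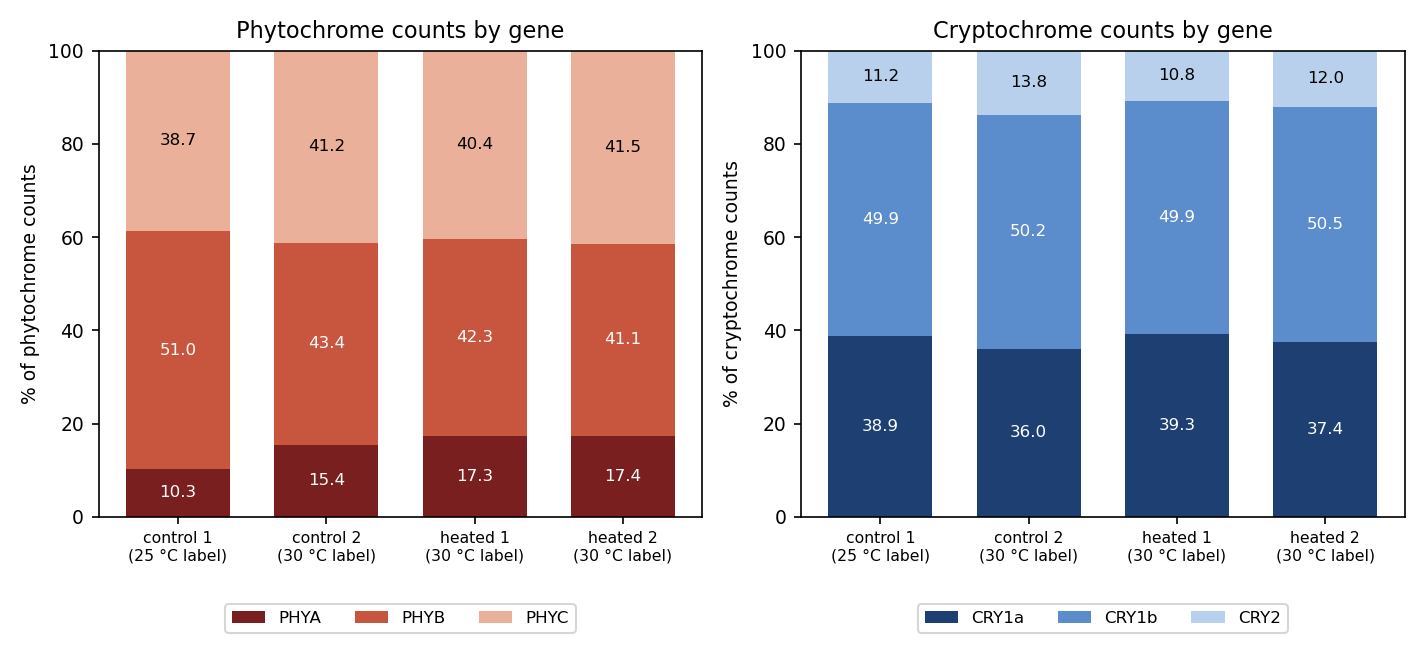
Share of the summed phytochrome counts (left) and cryptochrome counts (right) held by each gene, in percent, in the 4 libraries. The PHYA share is 10.3% in control 1 and 15.4% to 17.4% in the others, the PHYB share is 51.0% in control 1 and 41.1% to 43.4% in the others, and CRY1b stays between 49.9% and 50.5%.

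Differences between single libraries were taken as well. Between the controls, the median absolute log2 difference was 0.16 over the 6 genes and 0.27 over all tested genes. Between the heated libraries it was 0.074 and 0.16. These medians are descriptions, because genes with high counts vary less, and for tested genes averaging 10 CPM or more they were 0.23 and 0.12. Across the groups, the median over all tested genes was 0.31 from control 1 to heated 1 and 0.29 to heated 2. From control 2 it was 0.18 to each. Over all tested genes, control 1 thus lay farther from every other library than those lay from each other. Over the 6 genes the medians were 0.070 and 0.12 from control 1, and 0.14 and 0.081 from control 2. The largest member difference within a group was that of PHYA between the controls, 0.68 on the log2 scale, and 14.1% of all tested genes were at least as far apart there. Between the heated libraries the largest was that of CRY2, 0.22, and 36.6% of tested genes were at least as far apart.

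The likeness of patterns was measured as the distance between log2(CPM + 0.5) values over the 4 libraries, each gene centred on its own mean. Within the 6 genes, PHYC and CRY1b were the closest pair (distance 0.088) and PHYA and PHYB the farthest apart (0.86). Of tested genes averaging 10 CPM or more, 2.24% lay nearer to PHYC than CRY1b did. For PHYA, 74.0% lay nearer than PHYB did. Among 12602 other tested genes averaging 10 CPM or more, Os05g0488800 lay closest to PHYA (distance 0.038). It was at 9.48, 15.1, 15.2 and 16.2 CPM in control 1, control 2, heated 1 and heated 2. Os02g0105100 was next (distance 0.045), at 28.2, 46.5, 45.1 and 48.1 CPM. Both were picked for their likeness to PHYA over these same 4 libraries, so their low value in control 1 follows from the choice. Their fold changes between the groups follow from the choice as well, and neither was called (edgeR adjusted p = 0.755 and 0.767). The points of these distances are only 4 libraries, in which many genes follow the same few patterns.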

How the data were processed

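Leaf poly(A) RNA was read as paired ends from strand-marking libraries, per the labels' protocols. Per the submitters' processing notes, the tools were Bowtie2, RSEM, Trimmomatic, edgeR 3.26.3 and FastQC 0.11.7, with the build IRGSP-1.0. How they were set is not stated in the labels. Per the file headers, the authors deposited RSEM's gene-level expected counts, which are not normalized. Columns were matched to titles by the letter of the group and the replicate number, and 0 columns belonged to other samples.

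After rounding, all genes were fitted with edgeR 4.0.16 (R 4.3.3) and its quasi-likelihood test (filterByExpr, minimum count 10 and total 15; TMM; group as the only term; two-sided). CPM used the unrounded counts and the TMM-scaled library sizes. A standard error is the log2 fold change divided by the square root of F, and 95% intervals use the t quantile of that fit. Other settings tried were the scaling and the filter, limma-voom (limma 3.58.1), DESeq2 1.42.0, the exact test of edgeR, a replicate block, grouping by treatment label and fits with 1 library left out.

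The 6 genes were named in full by rule, with the 2 nearest to the member of widest range. The members and lists were chosen with earlier results of these data known. Gene names are those under which the IDs were selected: the reference table (assembly ASM3414082v1) matched 0 of the 6 and 0 of 27 further listed IDs (24 of light signalling, 3 leaf markers), so those lists were not tested. No sequence or transcript length was used. The replicate numbers were treated as names, not as pairs.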

Additional observations from a re-analysis of the deposited data

How the results depend on the processing

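Of 96 member fold changes under the 16 alternatives, 80 kept their direction and stayed on the same side of the threshold, 15 changed sign without a call and 1, PHYA without control 2, became called. Under settings other than leaving out a library or regrouping, PHYA stayed between 0.34 and 0.41 on the log2 scale (adjusted p 0.587 to 0.999) and PHYB between -0.25 and -0.17 (0.656 to 0.915). Leaving out 1 library moved PHYA between 0.047 and 0.73, PHYB between -0.32 and -0.18, PHYC between -0.13 and 0.050, CRY1a between -0.042 and 0.023, CRY1b between -0.073 and 0.014 and CRY2 between -0.33 and 0.0041, and the count of members called between 0 and 1. With library totals only, log2 fold changes were 0.033 for PHYC, 0.071 for CRY1a and 0.039 for CRY1b, where the median of all genes moved from 0.0061 to 0.076. CRY1a was 0.0024 without a filter and 0.0055 with at least 10 counts in every library. By treatment label, PHYC was 0.11, CRY1b 0.024 and CRY2 0.14, against -0.17 for CRY2 by title. Apart from these the cause of the shifts was not tested.

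For the shares, leaving out 1 library moved the PHYC difference between -0.20 and 2.25 percentage points, CRY1a between -0.52 and 2.33, CRY1b between -0.14 and 0.48 and CRY2 between -2.35 and 0.19, and PHYA and PHYB kept their direction (1.92 to 7.09 and -9.34 to -1.72). By treatment label, CRY1a differed by -1.30 and CRY2 by 0.97 percentage points, and the log2 ratio of the families by 0.0083. Shares per coding length were not run, since no lengths were used. With a replicate block the PHYA log2 fold change was 0.39 (edgeR adjusted p = 0.587) and 0 of 6 genes were called. The replicate numbers were not used as pairs, because they are not said to mark a shared batch. As a check, the control 1 minus control 2 differences were correlated with those of heated 1 minus heated 2 over 22184 genes (r = -0.015). The fits on unrounded counts and on PHYA summed with its shared ID were chosen after seeing the data. With 2 libraries per group, these data do not tell apart the fold changes that lie within a printed interval.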
